A study of Mus musculus with 2 samples.

Results

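The genes described here are the isozymes of 5 steps of glycolysis: the hexokinases Hk1 and Hk2, the phosphofructokinase subunits Pfkp and Pfkm, the aldolase Aldoa, the pyruvate kinases Pkm and Pklr, and the lactate dehydrogenase subunits Ldha and Ldhb. They were found by gene symbol, which gave 9 of the 32245 symbols in the feature table, on 10 of its 32285 rows, because Aldoa has 2 identifiers. Kidney sections of 10 µm from C57BL/6 mice with unilateral ureteral obstruction, a model in which tying a ureter blocks urine flow, were profiled on 10x Genomics Visium slides, where each spot takes up RNA from an area wide enough for several cells. The series title concerns inhibition of TRPC6, a cation channel, and SH045, a larixyl carbamate, is an inhibitor of that channel. The kidneys were taken 7 days after surgery from 1 mouse given SH045 and from 1 mouse given Vehicle, so by the labels both sections carry the surgery. The sources used here do not give dose, route or age.

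Glycolysis turns glucose into pyruvate, and lactate dehydrogenase then interconverts pyruvate and lactate. Most steps have several isozymes that differ in regulation and in the cells that make them. In the kidney, the proximal tubule is known as the main site of gluconeogenesis and burns fatty acids, while the distal nephron, collecting duct and medulla carry most of the glycolytic enzyme activity. In cells that switch towards glycolysis, the transcription factors HIF-1 and MYC are known to raise Hk2, Aldoa, Pkm and Ldha.

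With 1 section per treatment there is no replicate, so no test between SH045 and Vehicle was possible, and intervals given below are exact 95% intervals that cover counting error only. Values are unique molecular identifiers (UMIs), added up by section and given as CPM, the counts of a gene scaled to a common total of all UMIs. The SH045 section had 790 spots and 22388623 UMIs, with a median of 27733 per spot, against 676 spots, 4327613 UMIs and a median of 4932.5 for Vehicle. Mitochondrially encoded genes took 4.24% of UMIs with SH045 and 10.4% with Vehicle. The positions table flags 790 spots as tissue for SH045, all in the matrix, but 1210 for Vehicle, of which 570 are among the 676 in its matrix. The matrices share 335 barcodes, which on these slides name fixed positions. The section labelled Vehicle was nearly without transcripts of the classic tubule injury markers, although its label gives obstruction surgery. Whether this section or its positions table is from another kidney than the label names cannot be told from these files, so every SH045 against Vehicle value below compares the sections as labelled. All 12 injured tubule markers were at least 1.5-fold higher with SH045, where 52.2% of all genes were, and their sum was 28530 CPM with SH045 and 1703 CPM with Vehicle. Havcr1 and Lcn2, which injured tubules make, reached 992 and 1233 CPM with SH045 but 1.62 and 2.08 CPM (7 and 9 UMIs) with Vehicle. Fibroblast markers summed to 2905 CPM with SH045 and 106 CPM with Vehicle, and macrophage markers to 5874 CPM with SH045 and 598 CPM with Vehicle. Proximal tubule markers of segments S1 and S2 summed to 1864 CPM with SH045 and 12689 CPM with Vehicle. Distal convoluted and connecting tubule markers summed to 620 CPM with SH045 and 23033 CPM with Vehicle. Collecting duct markers were also lower with SH045, at 586 against 1191 CPM for principal cells and 257 against 943 CPM for intercalated cells. Thick ascending limb markers were higher with SH045, at 3928 against 2565 CPM, as were thin limb and inner medulla markers, at 896 against 592 CPM. The part of these differences in the isozyme values was not tested, and since every spot mixes cells, fewer cells of a type and less RNA per cell cannot be told apart.

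Hk2 and Pfkp were the isozymes that stood highest in the SH045 section relative to the Vehicle section, Pfkm stood lowest, and Ldha was at the same level in both. Among genes with at least 10 CPM in at least 1 section, a gene was counted as higher or lower when it differed 1.5-fold. By that rule Hk2, Pfkp and Pklr were higher (3 of 9 isozymes, against 52.2% of the 10463 genes measured), and Pfkm was lower (1 of 9, against 11.8%). The median gene was itself higher with SH045 by 0.63 on the log2 scale of CPM + 1. Relative to that median, Hk2 alone was higher (1 of 9, against 25.4% of all genes), and Pfkm, Aldoa, Pkm and Ldha were lower (4 of 9, against 25.7%). Scaling the sections by trimmed mean or by median-of-ratios factors gave the same 1 higher and 4 lower isozymes, so the placing of Pfkp, Pklr, Aldoa, Pkm and Ldha depends on the scaling. The 9 isozymes together made up 4358 CPM with SH045 and 4527 CPM with Vehicle, and their median log2 ratio was 0.16.

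**Figure D1:**
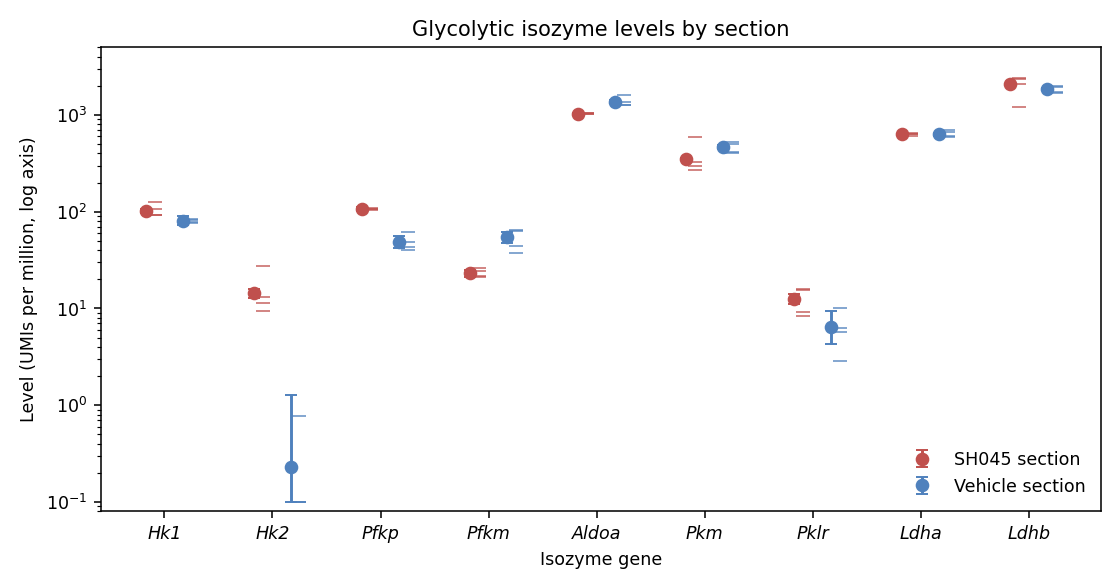
CPM of the 9 isozymes in the SH045 section and the Vehicle section, on a log axis. Filled points are whole sections with exact 95% Poisson intervals, cut at the lower axis limit, and short lines are 4 position blocks of each section, with blocks at 0 drawn at 0.1. Hk2 and Pfkp lie higher with SH045 and Pfkm lower, while the Ldha values overlap.

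The 250 bases upstream of an annotated start of a gene are shown for 4 isozymes. These are Hk2 and Pfkp, which were higher with SH045, and the pair Ldha and Ldhb. The balance of that pair varied with distal convoluted and connecting tubule markers, among other lists, in both sections. For Pfkp and Ldha the annotated start lies inside the gene span given below, and so does the window. Sequences are from RefSeq on GRCm38.p6, the assembly also named mm10, and are written 5′ to 3′ on the gene's strand. Capitals mark ACGTG or its reverse complement CACGT, a form of the core letters of hypoxia response elements. The form GCGTG was not counted, and it occurs in the Pfkp and Ldhb windows below. Where ACGTG and CACGT overlap they form CACGTG, the E-box that MYC and related factors bind. The Hk2 window is chr6:82774455-82774704 on the minus strand, the Pfkp window chr13:6648772-6649021 on the minus strand, the Ldha window chr7:46845554-46845803 on the plus strand, and the Ldhb window chr6:142507958-142508207 on the minus strand.
Hk2: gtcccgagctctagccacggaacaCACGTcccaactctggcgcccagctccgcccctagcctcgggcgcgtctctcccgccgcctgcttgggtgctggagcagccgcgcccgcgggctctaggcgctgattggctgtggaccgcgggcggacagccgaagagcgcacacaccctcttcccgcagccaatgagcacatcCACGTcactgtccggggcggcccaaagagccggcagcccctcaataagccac
Pfkp: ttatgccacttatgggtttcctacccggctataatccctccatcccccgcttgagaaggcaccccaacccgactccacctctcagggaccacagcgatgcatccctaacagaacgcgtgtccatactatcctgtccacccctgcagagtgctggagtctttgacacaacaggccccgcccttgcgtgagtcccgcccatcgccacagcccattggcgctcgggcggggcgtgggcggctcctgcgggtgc
Ldha: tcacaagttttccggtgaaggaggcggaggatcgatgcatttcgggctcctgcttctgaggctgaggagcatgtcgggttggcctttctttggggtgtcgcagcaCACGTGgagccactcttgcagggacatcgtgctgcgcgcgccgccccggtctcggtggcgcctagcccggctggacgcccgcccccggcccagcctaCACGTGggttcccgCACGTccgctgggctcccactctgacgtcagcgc
Ldhb: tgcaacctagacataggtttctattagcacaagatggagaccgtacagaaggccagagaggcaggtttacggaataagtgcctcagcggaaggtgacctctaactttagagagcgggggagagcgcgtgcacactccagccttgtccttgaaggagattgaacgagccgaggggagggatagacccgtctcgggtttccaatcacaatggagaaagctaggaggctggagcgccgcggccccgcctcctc
ACGTG or CACGT occurs 2 times upstream of Hk2 and 5 times upstream of the first of the 2 starts of Ldha. Both strands are counted, so each CACGTG counts 2 times. Upstream of Pfkp and Ldhb there were 0 matches. Among windows not shown, Pfkm, which was lower with SH045, had 2 matches at the first of its 4 starts, as a CACGTG. It had 1 match at the second start, and Pklr, which was higher with SH045, had 0 at both its starts. Over all isozymes, 7 of 18 annotated starts in 5 of 9 genes had a match, against 16.6% of 32851 promoters of the same length and 18.5% of 27025 genes. The isozymes have more starts per gene than that background, so the shares of genes are not like for like. The windows of 2 Aldoa starts overlap and hold the same match, which counts for both starts. All of these are letter matches, which say nothing of binding in these kidneys.

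Hexokinase traps glucose in the cell by phosphorylating it. Hk1 is the broadly expressed form, and Hk2 is the inducible form of muscle, fat and growing cells. Hk2 (ENSMUSG00000000628, chromosome 6, 82725025 to 82774454) had 320 UMIs or 14.3 CPM (12.8 to 15.9) in the SH045 section, against 1 UMI or 0.231 CPM (0.00585 to 1.29) in the Vehicle section. Its ratio was 61.9, with a counting interval of 11.02 to 2451 because it rests on 1 Vehicle UMI. Each section was also split by row and then by column into 4 blocks of about equal spot number, and these blocks had 9.41, 13.0, 11.3 and 27.3 CPM with SH045, against 0, 0, 0 and 0.770 CPM with Vehicle. All SH045 blocks were above all Vehicle blocks, though blocks of a section are not replicates. When every spot was thinned to 2500 UMIs to remove the difference in depth, leaving out 2 SH045 and 115 Vehicle spots, Hk2 had a UMI in 26 of 788 spots with SH045 (3.30%, 2.17 to 4.80) against 0 of 561 with Vehicle, which allows a share of up to 0.535% at 3 counts and of up to 0.655% by the exact interval. Before thinning, the shares were 30.5% with SH045 and 0.148% with Vehicle.

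Hk1 (ENSMUSG00000037012, chromosome 10, 62268855 to 62379920) had 102 CPM (98.1 to 107) with SH045 and 80.4 CPM (72.2 to 89.3) with Vehicle, a ratio of 1.27 (1.14 to 1.43), which is below the 1.5-fold limit. Its blocks had 93.6, 106, 92.0 and 125 CPM with SH045, against 83.2, 77.3, 78.4 and 81.6 CPM with Vehicle. The 2 sets of blocks did not overlap, but relative to the median gene Hk1 lay below 0, at -0.29 on the log2 scale. Hk1 remained the main hexokinase in both sections. Hk2 took 12.3% (11.03 to 13.6) of the UMIs of the pair with SH045 and 0.287% (0.00725 to 1.59) with Vehicle. The log2 odds ratio was 5.60 (3.10 to 10.9). Other hexokinase genes were scarce: Hk3 had 3.17 CPM with SH045 and 0.693 CPM with Vehicle, and Hkdc1 had 3.71 CPM with SH045 and 3.00 CPM with Vehicle.

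Phosphofructokinase commits the sugar to glycolysis, and its tetramers are built from the platelet-type subunit Pfkp, the muscle-type subunit Pfkm and the liver-type subunit Pfkl. Pfkp outnumbered Pfkm with SH045, and the pair was nearly even with Vehicle. Pfkp (ENSMUSG00000021196, chromosome 13, 6579874 to 6649060) had 106 CPM (102 to 111) with SH045 and 48.5 CPM (42.2 to 55.6) with Vehicle, a ratio of 2.19 (1.90 to 2.54). Its blocks had 109, 107, 104 and 106 CPM with SH045, against 61.4, 43.4, 48.6 and 40.0 CPM with Vehicle. Pfkm (ENSMUSG00000033065, chromosome 15, 98092589 to 98132447) had 23.2 CPM (21.2 to 25.3) with SH045 and 54.5 CPM (47.8 to 62.0) with Vehicle, and was thus 2.35-fold lower with SH045 (2.01 to 2.75). Its blocks had 21.1, 24.5, 21.7 and 26.3 CPM with SH045, against 65.2, 37.7, 62.5 and 43.9 CPM with Vehicle. For both subunits the blocks of the sections did not overlap, and they lay apart in opposite directions.

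Pfkp therefore made up 82.1% (80.7 to 83.5) of the UMIs of the pair with SH045 and 47.1% (42.4 to 51.8) with Vehicle, an interval that spans an even pair. The difference was 35.0 percentage points. This share does not depend on how the sections are scaled. It was 80.04% to 83.8% over the SH045 blocks and 43.8% to 53.5% over the Vehicle blocks. In thinned spots Pfkp was present in 27.2% with SH045 and 11.2% with Vehicle, and Pfkm in 5.46% with SH045 and 12.7% with Vehicle. Pfkl, which is not among the 9 isozymes, had 66.4 CPM with SH045 and 38.1 CPM with Vehicle and took 33.9% (32.5 to 35.3) with SH045 and 27.0% (23.5 to 30.7) with Vehicle of the UMIs of all 3 subunits. It ranged from 27.0% to 47.2% over the SH045 blocks and from 24.7% to 29.5% over the Vehicle blocks, which overlap.

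**Figure D2:**
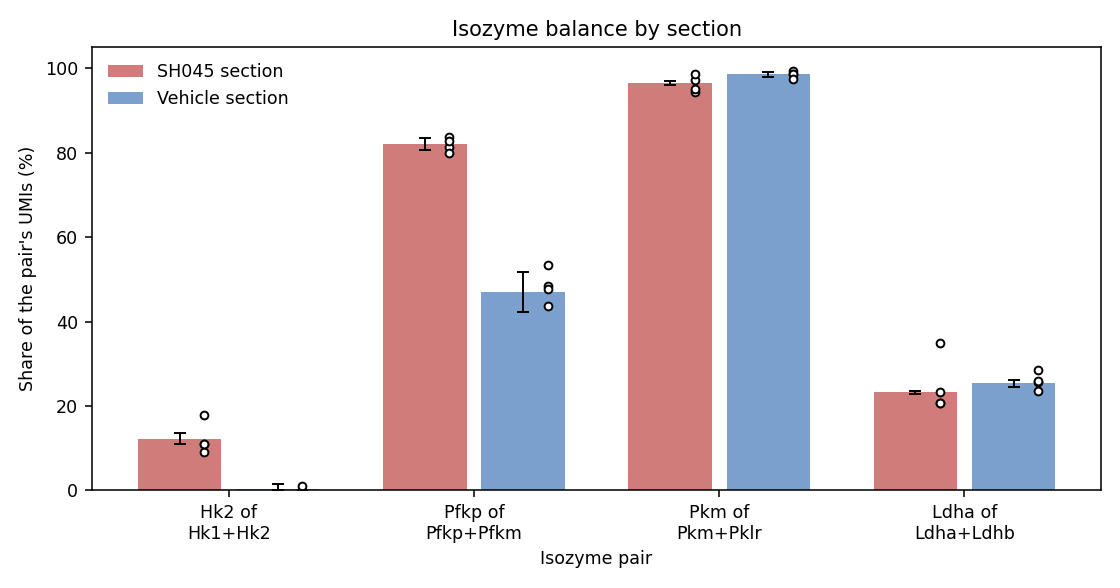
Share of the first isozyme in the UMIs of each pair (%), with SH045 bars left of Vehicle bars. Bars are whole sections with exact 95% binomial intervals, and open points are 4 position blocks. The hexokinase and phosphofructokinase shares separate, and the pyruvate kinase and lactate dehydrogenase shares overlap between blocks.

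Aldolase splits fructose 1,6-bisphosphate. Aldoa is the form of muscle and most cells. Aldoa (chromosome 7, 126795234 to 126800994) had all its UMIs on ENSMUSG00000030695 and 0 on ENSMUSG00000114515. It had 1034 CPM (1021 to 1047) with SH045 and 1376 CPM (1342 to 1412) with Vehicle, and was 1.33-fold lower with SH045 (1.29 to 1.37), within the 1.5-fold limit. The blocks had 1039, 1023, 1032 and 1046 CPM with SH045, against 1593, 1263, 1368 and 1255 CPM with Vehicle. The 4 SH045 blocks hardly varied, and all were below the Vehicle blocks. In the quartile of spots richest in distal convoluted and connecting tubule markers Aldoa had 1087 CPM (1061 to 1113) and in the poorest 1021 CPM (994 to 1049) with SH045, against 1927 CPM (1837 to 2020) and 1219 CPM (1159 to 1282) with Vehicle. The 2 quartiles thus lay closer to each other in the SH045 section. Over tiles of 4 grid rows by 8 grid columns, log2(CPM + 10) of Aldoa had r = -0.09 with that list with SH045 and 0.74 with Vehicle, and r = 0.60 with SH045 and 0.69 with Vehicle with the collecting duct principal cell list; the difference between the sections was not tested.

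Pyruvate kinase makes pyruvate and ATP. Pkm encodes the M1 and M2 splice forms, which these 3′ counts cannot tell apart, and Pklr encodes the liver and red cell forms. Pkm (ENSMUSG00000032294, chromosome 9, 59656576 to 59679372) had 354 CPM (346 to 361) with SH045 and 466 CPM (446 to 487) with Vehicle. Its blocks had 268, 328, 299 and 589.8 CPM with SH045, against 522, 413, 499.8 and 406 CPM with Vehicle. One SH045 block was above every Vehicle block and the other 3 were below, so the sections overlap. Pklr (ENSMUSG00000041237, chromosome 3, 89136122 to 89146815) had 281 UMIs or 12.6 CPM (11.1 to 14.1) with SH045 and 28 UMIs or 6.47 CPM (4.30 to 9.35) with Vehicle. The ratio of 1.94 (1.31 to 2.97) had overlapping blocks, 8.31 to 16.0 CPM with SH045 and 2.84 to 10.0 CPM with Vehicle, and its log2 ratio of 0.86 was 0.39 in thinned spots, below the limit. Erythroid markers, given because red cells make a Pklr form, summed to 64.7 CPM with SH045 and 24.7 CPM with Vehicle. Over SH045 tiles Pklr had r = -0.55 with the erythroid list and -0.75 with the thin limb and inner medulla list. It had r = 0.61 with the macrophage list, 0.55 with the distal convoluted and connecting tubule list and 0.47 with the S1 and S2 list. The part of red cells or of any other cell type was not tested. Pkm supplied nearly all pyruvate kinase UMIs in both sections, 96.6% (96.2 to 97.0) with SH045 and 98.6% (98.0 to 99.1) with Vehicle.

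Lactate dehydrogenase is a tetramer of Ldha subunits, which favour lactate formation, and Ldhb subunits, which favour its use. Ldha (ENSMUSG00000063229, chromosome 7, 46842274 to 46855627) had 631 CPM (621 to 641) with SH045 and 632 CPM (609 to 656) with Vehicle, a ratio of 0.998 (0.958 to 1.04). Its blocks had 605, 637, 633 and 653 CPM with SH045, against 693, 671, 603 and 599 CPM with Vehicle. The interval spans a ratio of 1, and the blocks overlap. Relative to the median gene the log2 ratio of Ldha was -0.64, past the 1.5-fold limit.

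Ldhb (ENSMUSG00000030246, chromosome 6, 142490249 to 142507957) had the highest level of the 9 isozymes in both sections, 2081 CPM (2062 to 2100.0) with SH045 and 1862 CPM (1822 to 1903) with Vehicle, a ratio of 1.12 (1.09 to 1.14). Relative to the median gene its log2 ratio was -0.47, so its direction depends on the scaling. Levels of different genes are compared here as captured 3′ UMIs, which are counted once per transcript and are not divided by length. The blocks had 2334, 2095, 2417 and 1214 CPM with SH045, against 2000.3, 1689, 1958 and 1713 CPM with Vehicle. The SH045 block with the highest Pkm had the lowest Ldhb, and the blocks of the sections overlap. Ldha was 23.3% (22.9 to 23.6) of the pair with SH045 and 25.3% (24.5 to 26.2) with Vehicle, and the difference of 2.08 percentage points lies within the block ranges of 20.6% to 35.0% with SH045 and 23.6% to 28.4% with Vehicle. Its direction is not stable: as a mean of tile shares Ldha was 27.3% with SH045 and 26.0% with Vehicle, and in spots under 10% mitochondrially encoded UMIs it was 22.9% with SH045 and 22.7% with Vehicle. Ldha was more than 50% of the pair in 29 of 787 spots with SH045 and 13 of 418 with Vehicle, among those with at least 10 UMIs of the pair.

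The order of the levels in the SH045 section was Ldhb, Aldoa, Ldha, Pkm, Pfkp, Hk1, Pfkm, Hk2 and Pklr, where the intervals of Pfkp and Hk1 and of Hk2 and Pklr overlap. In the Vehicle section it was Ldhb, Aldoa, Ldha, Pkm, Hk1, Pfkm, Pfkp, Pklr and Hk2, where those of Pfkm and Pfkp overlap. The 4 most abundant isozymes held the same places in both sections.

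Each section was divided into tiles of 4 grid rows by 8 grid columns, which gave 53 tiles for SH045 and 46 for Vehicle. The Ldha share varied from 13.3% to 51.0% between SH045 tiles (median 28.2%) and from 13.5% to 41.9% between Vehicle tiles (median 25.5%). Its standard deviation over tiles was 6.34 times that of binomial counting alone with SH045 and 1.76 times with Vehicle, where tiles hold fewer UMIs. The Pfkp share in SH045 tiles had 1.28 times the counting spread and the Hk2 share 1.36 times. In the larger areas of blocks, the Hk2 share ran from 9.14% to 18.0% with SH045 and from 0% to 0.935% with Vehicle. Only 2 Vehicle tiles had the 20 phosphofructokinase UMIs needed, and 0 had 20 hexokinase UMIs of the pair.

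**Figure D3:**
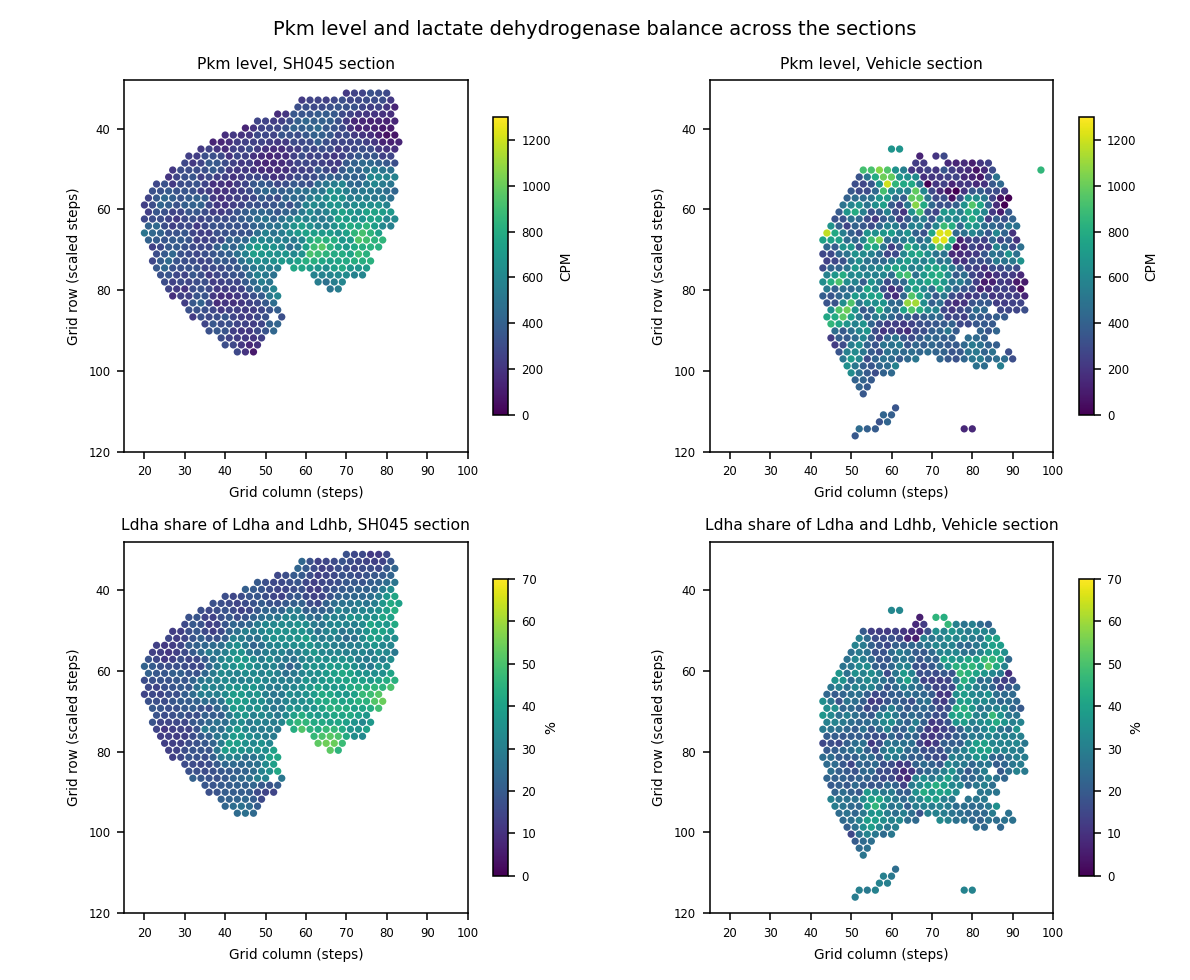
Level of Pkm (upper panels, CPM) and share of Ldha in Ldha and Ldhb UMIs (lower panels, %) at each spot and its neighbours, with the SH045 section on the left and the Vehicle section on the right. Axes are slide grid positions, and spots with fewer than 10 Ldha and Ldhb UMIs in the neighbourhood are left out of the lower panels. In the SH045 section Pkm is high in 1 broad area towards the lower right, and in the Vehicle section it is high in scattered patches.

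Within the SH045 section, Pkm was high where proximal tubule markers were low. Over its 53 tiles, log2(CPM + 10) of Pkm had r = -0.93 with the S1 and S2 list. With the same list, r was -0.73 for Hk1 and -0.64 for Hk2. Over 46 Vehicle tiles Pkm had r = -0.40 with the list. Pkm also ran with markers of other cells: its r was 0.85 with the endothelium list, 0.81 with the fibroblast list and 0.62 with the smooth muscle list over SH045 tiles, and 0.65, 0.43 and 0.40 with the same lists over Vehicle tiles. With other lists its sign differed between the sections. Its r with the distal convoluted and connecting tubule list was -0.63 over SH045 tiles and 0.70 over Vehicle tiles. With the oxidative phosphorylation list it was -0.74 over SH045 tiles and 0.71 over Vehicle tiles. By the fibroblast list Pkm had 559 CPM in the richest and 217 CPM in the poorest SH045 quartile, against 628 and 438 CPM in those of Vehicle, and the part of these cells was not tested. In the quartile of spots richest in S1 and S2 markers Pkm had 199 CPM and in the poorest 615 CPM, and the same quartiles of the Vehicle section had 292 and 879 CPM. Hk1 had 59.6 and 146 CPM in the richest and poorest SH045 quartiles and 47.2 and 135 CPM in those of Vehicle. Both isozymes thus ran the same way with the S1 and S2 markers in both sections. Aldoa had 973 and 1121 CPM in the richest and poorest SH045 quartiles and 1226 and 1864 CPM in those of Vehicle. Over tiles its r with the list was -0.40 with SH045 and -0.20 with Vehicle. Over Vehicle tiles Aldoa and Ldhb also ran with the oxidative phosphorylation list, at r = 0.83 and 0.80, so this was not particular to Pkm. Tiles share a library and differ in depth and in the mix of cells, so these correlations describe each section. Spots of the Vehicle section also differ in mitochondrially encoded UMIs, with 334 of 676 under 10%. The tile correlations were not repeated without the other spots.

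Ldha varied less with the same markers, at 656 and 659.5 CPM in the richest and poorest SH045 quartiles and 708 and 559.9 CPM in those of Vehicle. Ldhb varied with distal markers. It had 2862 CPM in the SH045 quartile richest in distal convoluted and connecting tubule markers and 1269 CPM in the poorest, and 2581 and 1689 CPM in those of Vehicle, where Klk1 supplied 11178 CPM of the list. The Ldha share was 16.8% and 34.3% in the richest and poorest SH045 quartiles and 17.8% and 29.3% in those of Vehicle, and its correlation with that list over tiles was -0.87 with SH045 and -0.61 with Vehicle. With the thin limb and inner medulla list the Ldha share had r = 0.82 with SH045 and -0.34 with Vehicle, and the difference between the sections was not tested. The share also ran against other lists. With the principal cell, intercalated cell and macrophage lists its r was -0.19, -0.53 and -0.60 with SH045, and -0.64, -0.60 and -0.53 with Vehicle. With the endothelium list it was 0.61 with SH045 and -0.48 with Vehicle. The balance was thus not particular to the distal list.

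Pfkp was higher where injury markers were higher. It had r = 0.62 with the injured tubule list over tiles, and 130.0 CPM in the SH045 quartile richest in those markers against 86.0 CPM in the poorest. In the Vehicle section, where the list sums to far less, the values were 99.3 and 26.2 CPM. Pfkm had 19.4 and 21.6 CPM in the same SH045 quartiles but 106 and 30.3 CPM in those of Vehicle. Over Vehicle tiles Pfkm had r = 0.56 with the injured tubule list, 0.65 with the distal convoluted and connecting tubule list and 0.72 with the intercalated cell list. Pfkp had r = 0.45, 0.47 and 0.46 with the same 3 lists and 0.56 with the principal cell list. Its r with the injured tubule list over Vehicle tiles depends on the pseudocount, and was 0.35 with log2(CPM + 1). The Vehicle region richest in injury markers, at 3637 CPM, also held 65856 CPM of distal markers, and their parts were not tested. Hk2 had 18.3 CPM in the richest and 6.83 CPM in the poorest SH045 quartile of the injured tubule list, and 25.4 and 8.20 CPM by the fibroblast list. It had 5.38 and 23.5 CPM in the quartiles richest and poorest in S1 and S2 markers, and 7.38 and 25.3 CPM in those of oxidative phosphorylation genes. Over SH045 tiles its r was 0.62 with the fibroblast list, 0.58 with smooth muscle, 0.53 with urothelium, 0.44 with injured tubule and -0.71 with oxidative phosphorylation. Its higher levels were thus in spots rich in fibroblast, smooth muscle, urothelium and injury markers and poor in proximal tubule and oxidative phosphorylation transcripts, whose part was not tested.

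**Figure D4:**
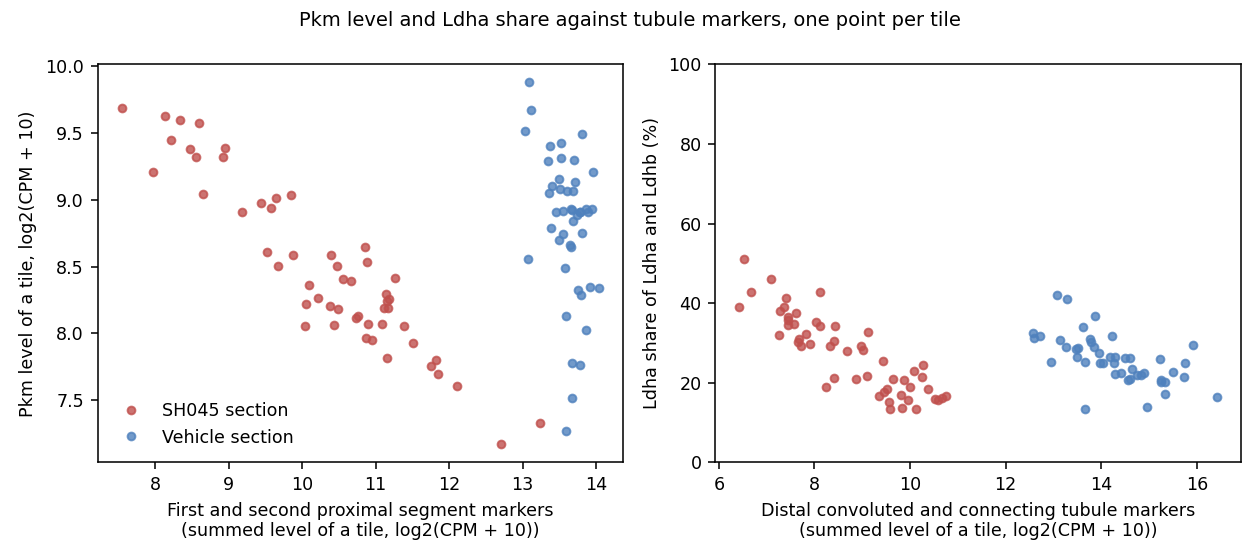
Tile values of the Pkm level (left, log2 of CPM + 10) and of the Ldha share (right, %) plotted against the summed level of marker lists (log2 of CPM + 10), for 53 SH045 tiles and 46 Vehicle tiles. Pkm is lower where S1 and S2 markers are higher, more tightly with SH045 than with Vehicle, and the Ldha share is lower where distal markers are higher in each section; the marker levels of the sections hardly overlap.

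Spots were also grouped into regions by clustering on genes outside glycolysis and its relatives, which gave 8 regions for SH045 and 5 for Vehicle. The Pfkp share was 76.2% to 85.4% over the 8 SH045 regions and 40.8% to 56.7% over the 5 Vehicle regions, so the point values did not overlap. The Hk2 share was 3.33% to 21.9% over SH045 regions and 0% to 0.787% over Vehicle regions. The width of these ranges depends on how finely spots are grouped. At a clustering resolution of 0.4 in place of 0.6, with 5 SH045 regions and 4 Vehicle regions, the Hk2 share was 9.09% to 16.6% with SH045 and 0% to 0.730% with Vehicle, and the Pfkp share was 79.4% to 84.5% with SH045 and 40.8% to 56.4% with Vehicle. At a resolution of 1.0 the Hk2 share was 4.93% to 22.0% with SH045 and 0% to 1.37% with Vehicle, and the Pfkp share was 68.6% to 88.2% with SH045 and 39.4% to 57.7% with Vehicle. At each resolution the sections stayed apart in both shares. The highest Hk2 share, 21.9% (17.5 to 26.9), was in the region of 102 spots led by Thbs4, Col6a4 and Krt14, where Hk2 had 33.8 CPM (26.3 to 42.7). That region also held 232 CPM of urothelium markers, against at most 25.2 CPM in any other SH045 region. The Ldha share ranged from 15.8% to 40.0% with SH045 and from 16.6% to 30.7% with Vehicle. It was lowest in the SH045 region led by Slc12a3, the thiazide-sensitive cotransporter of the distal convoluted tubule, and in the Vehicle region led by Klk1, which is made by connecting tubule. Ldhb was highest in those same regions, at 3078 CPM with SH045 and 2696 CPM with Vehicle, while Ldha stayed between 578 and 765 CPM over SH045 regions and between 535 and 695 CPM over Vehicle regions. Aldoa had 836 to 1284 CPM over SH045 regions and 1068 to 2005 CPM over Vehicle regions. It was highest in the SH045 region of 95 spots led by Fst, Clca3a2 and Ptger3, which also had Slc12a1, the cotransporter of the thick ascending limb, among its leading genes, and in the Vehicle region led by Klk1. Pklr was highest in the SH045 region led by Slc22a8 and Miox, a proximal tubule transporter and oxygenase, at 20.3 CPM (16.4 to 24.8), and there Pkm was lowest, at 164 CPM (153 to 176). The Pkm share was 89.0% in that region and up to 99.7% in others. Of the Vehicle regions, 1 was led by mt-Atp8 and mt-Nd4l and 1 by Gm42418 and Lars2, with 21.1% and 17.6% mitochondrially encoded UMIs, so these are not placed in the kidney by markers.

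**Figure D5:**
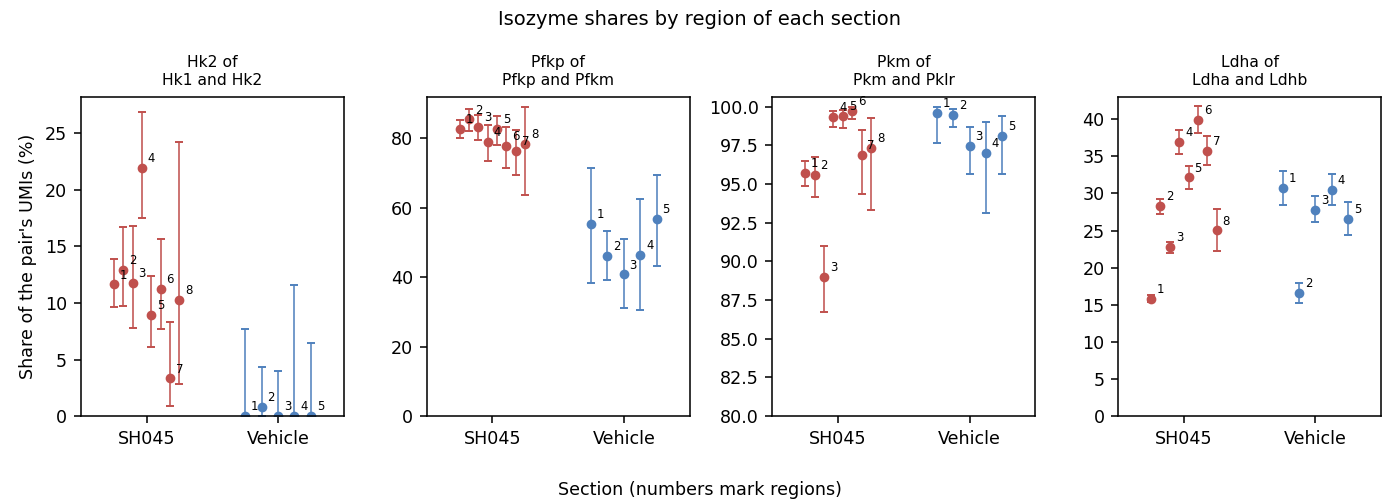
Isozyme shares (%) in the regions of each section, with exact 95% intervals, SH045 regions left of Vehicle regions. Points are regions numbered by size, and the pyruvate kinase axis starts at 80%. All SH045 points lie above all Vehicle points for Pfkp and Hk2, although some intervals of the sections overlap for both, and the Ldha points overlap.

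For each isozyme the 3 genes with the most similar tile pattern were listed among genes with at least 50 CPM, 3802 with SH045 and 2676 with Vehicle. Pkm in the SH045 section ran with Epcam (r = 0.92), Gsn and Crip2, and Ldhb with S100a1 (0.93), Pdzk1ip1 and Tmem52b. Hk1 ran with Plet1 (0.82), Cd24a and Ckb, and Pfkp with Sdc4 (0.73), Tsc22d1 and Atf3. Ldha ran with Cck (0.60) and with its pathway neighbours Pgk1 (0.58) and Pgam1 (0.57). Aldoa in the Vehicle section ran with Atp6v1e1 (0.86) and Klk1, Ldhb with Idh2 (0.82), Cox7a2 and Atp6v1f, and Pkm with Scd2 (0.82) and Mt1. Hk2 and Pklr had too few Vehicle UMIs for a pattern.

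Most other measured genes of the pathway were lower with SH045. Of the 21 other glycolytic genes 13 were measured, 2 were higher (Pfkl, and Adpgk, an ADP-dependent glucokinase, at 27.0 CPM with SH045 and 11.8 CPM with Vehicle) and 7 were lower, with a median log2 ratio of -0.68. These counts and those of the lists that follow stand beside 52.2% of all genes higher and 11.8% lower. The lower genes included Gapdh, the dehydrogenase of the middle step, at 1772 CPM with SH045 and 3435 CPM with Vehicle. Pgk1 had 292 CPM with SH045 and 480.2 CPM with Vehicle, and Pgam2, the muscle phosphoglycerate mutase, had 26.3 CPM with SH045 and 310.1 CPM with Vehicle. Skeletal muscle markers, given because Pgam2 is a muscle form, summed to 2.81 CPM with SH045 and 0.231 CPM with Vehicle. Pgam2 was also among the 5 leading genes of the SH045 region led by Slc12a3, at 60.5 CPM there and 10.5 CPM in the rest of that section. The part of distal tubule or muscle in its level was not tested. Among 12 measured gluconeogenic genes 1 was higher and 9 were lower, with Pck1, the cytosolic carboxykinase, at 96.2 CPM with SH045 and 355 CPM with Vehicle, and Fbp1, the phosphatase that reverses phosphofructokinase, at 166 CPM with SH045 and 636 CPM with Vehicle. Of 12 measured carriers 2 were higher. Slc2a1, the basal glucose transporter GLUT1, had 139 CPM with SH045 and 39.3 CPM with Vehicle, and the lactate exporter Slc16a3 had 355 UMIs with SH045 and 0 with Vehicle, at least 22.9-fold higher against a floor of 3 counts per section. Another 7 carriers were lower, among them Slc2a2 at 43.4 CPM with SH045 and 100.5 CPM with Vehicle.

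Of 12 measured genes that control entry to and exit from glycolysis, 3 were higher and 6 lower. Pfkfb3, which makes the activator of phosphofructokinase, had 21.2 CPM with SH045 and 9.94 CPM with Vehicle, and Pdk4, which switches off pyruvate dehydrogenase, had 15.1 CPM with SH045 and 1.85 CPM with Vehicle. Of 12 measured HIF targets outside glycolysis 6 were higher and 2 lower, shares near the 52.2% and 11.8% of all genes. Ddit4, a stress-induced brake on mTOR, had 91.5 CPM with SH045 and 19.0 CPM with Vehicle. Ndrg1 had 1295 CPM with SH045 and 2489 CPM with Vehicle, and Vegfa, the vessel growth factor, 68.1 CPM with SH045 and 76.7 CPM with Vehicle. Among 11 measured regulators 5 were higher and 5 lower, with Myc at 59.8 CPM with SH045 and 1.62 CPM with Vehicle, and Hif1a at 134 CPM with SH045 and 45.8 CPM with Vehicle. All 13 measured oxidative phosphorylation genes were lower with SH045, against 11.8% of all genes. Relative to the median gene the counts of higher and lower genes were 0 and 9 for other glycolysis, 0 and 10 for gluconeogenesis, 2 and 8 for carriers, 2 and 9 for control, 5 and 4 for HIF targets and 3 and 6 for regulators, beside 25.4% and 25.7% of all genes. Over SH045 tiles the summed HIF target list, led by Ndrg1, had r = -0.90 with Pkm and -0.54 with Hk2, and over Vehicle tiles -0.15 with Pkm.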

How the data were processed

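Visium libraries of 2 kidney sections, 1 SH045 and 1 Vehicle, were processed by the authors with Space Ranger 2.0.1 on mm10, per the file headers and the submitters' processing notes. The deposited values are raw UMI counts per gene and spot, not normalized. UMIs were summed per section, block, tile, quartile and region and divided by all UMIs (CPM). Poisson, Clopper-Pearson and conditional binomial intervals at 95% came from scipy 1.17.1, and alternative scaling factors from edgeR 4.0.16. Regions came from scanpy 1.11.5 and leidenalg 0.10.2 on 2000 variable genes, 20 components, 15 neighbours and resolution 0.6, without glycolytic, control, carrier and gluconeogenic genes. Tiles needed 6 spots and 20 UMIs of the pair, and quartiles used spots with at least 1000 UMIs. Doublet calling was not run, since spots are not cells. Scripts were tested on simulated data. Named genes were the isozymes, genes of the fixed lists, the 3 genes of most similar tile pattern and the 5 leading genes of each region. Some items under these rules are not reported here. The isozymes and lists were chosen with earlier results of these data known.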

Additional observations from a re-analysis of the deposited data

How the results depend on the processing

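No paired analysis was possible because each treatment has 1 section. Trimmed mean and median-of-ratios scaling each gave 1 isozyme higher and 4 lower, since Pfkp (0.51 and 0.47 on the log2 scale) and Pklr (0.31 and 0.27) came under 1.5-fold while Aldoa (-1.02 and -1.07), Pkm (-1.01 and -1.05) and Ldha (-0.61 and -0.66) passed it. Spots under 10% mitochondrially encoded UMIs gave 3 lower isozymes and a Ldha share of 22.7% with Vehicle. Thinning to 2500 UMIs, which weights spots equally, left Hk2 and Pfkp higher without Pklr, and Pfkm lower. Relative to all genes it gave 2 isozymes higher, Hk2 and Pfkp, and 5 lower, Pfkm, Aldoa, Pkm, Ldha and Ldhb. The shares with SH045 were then 10.2% for Hk2, 85.8% for Pfkp, 97.5% for Pkm and 23.6% for Ldha, and with Vehicle the Hk2 share was 0%. The mean of tile shares was 27.3% for Ldha with SH045. No isozyme past 1.5-fold changed direction under these alternatives, but Hk1 (-0.26 and -0.30) and Ldhb (-0.45 and -0.49) fell below 0 under both scalings, and the Ldha share became higher with SH045 as a mean of tile shares and in spots under 10% mitochondrially encoded UMIs. Of the section-level values, 57 stayed within the limits and 13, given above, moved; the cause was not tested. Depth limits Hk2 and Pklr in the Vehicle section, which rest on 1 and 28 UMIs.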
